A study of Mus musculus with 38 samples.

Results

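The genes described here are 9 markers of the primed epiblast, Fgf5, Otx2, Pou3f1, Dnmt3a, Dnmt3b, Lef1, Zic2, Sall2 and Cdh2, chosen by name from the 78202 genes of the tables. CUT&RUN, in which an antibody-tethered nuclease cuts out the DNA near its target, was used to measure how much of each gene lay near the inner nuclear membrane protein LAP2B, near the lamin LMNB1, or gave signal with a rabbit anti-mouse antibody used as the negative control (IGG). The 36 libraries formed 12 groups of 3. LAP2B was mapped in 4 genotypes (WT, LBRKO, TKO and QKO), each as naive mouse embryonic stem cells (mESCs) and as epiblast-like cells (EpiLCs), while WT cells of both stages also gave LMNB1 and IGG libraries. TKO cells lacked Lmna, Lmnb1 and Lmnb2. LBRKO cells carried frameshift deletions in the lamin B receptor gene Lbr. QKO cells lacked the lamin genes and carried a frameshift and an in-frame deletion in Lbr. The authors detected no LBR protein in LBRKO or QKO cells. All naive cells were kept in serum-free 2i + LIF medium, which holds an inhibitor of GSK3, an inhibitor of MEK and the cytokine LIF, and all EpiLCs were made from naive cells with FGF and activin A.

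QKO was a single clone made from the TKO line, LBRKO was made from the WT line, and the WT and TKO lines came from littermates. The WT and TKO lines carried extra copies of some chromosomes, none of which holds one of the 9 genes. The karyotypes of the LBRKO and QKO lines are not given. Mutant cells survived less well than WT under EpiLC conditions, QKO cells least. The labels do not say that replicates were separate cultures, so p-values measure the spread between these libraries and not between clones of a genotype.

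During implantation, pluripotent cells of the mouse embryo leave the naive state and become primed epiblast, which can answer signals for the germ layers. The transition silences naive factors such as Nanog and Klf4, and it activates the genes described here: a secreted growth factor (Fgf5), transcription factors (Otx2, Pou3f1, Zic2, Lef1 and Sall2), the de novo DNA methyltransferases (Dnmt3a and Dnmt3b) and N-cadherin (Cdh2). Chromatin at the nuclear periphery lies in lamina-associated domains, which are usually poor in genes, rich in A and T, and silent. The fragments released in CUT&RUN are DNA, and every value below is an occupancy of the gene body and none is a transcript or protein level. In WT EpiLCs, the authors found LAP2B signal both inside and outside lamina-associated domains, as judged by LMNB1. They therefore did not use LAP2B to stand for these domains in EpiLCs.

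Each deposited gene value is a signal summed over all 1 kb bins touched by a gene and scaled to a yeast spike-in. On the spike-in scale the value is used as deposited. For the relative scale, the values of a library were divided by that of its median gene, which thus has the value 1. A library held between 12028659 and 45689196 recovered reads in all genes, and the 9 genes held 22 to 5039 reads each. Within groups of 3, the coefficient of variation of the relative values ran from 0.282% to 47.9%, with a median of 8.67%. Pou3f1 was the shallowest, with 22 to 228 reads per library, and Zic2 had 54 to 380. A change was called by limma at a Benjamini-Hochberg adjusted p under 0.05 over 70381 genes, two-sided, and all 9 genes passed the filter on low values. In bulk libraries, fewer cells in which a gene touches the nuclear envelope cannot be told apart from fewer contacts in every cell.

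The genes differed widely in size and base composition, which the tables carry into the values. Fgf5 (ENSMUSG00000029337; GRCm39 chr5:98401780-98452320, plus strand) covered 52 bins and had a GC content of 41.4% over its body. Cdh2 was the longest of the 9, with 243 bins and 40.2% GC. Dnmt3a (ENSMUSG00000020661; chr12:3856007-3964443, plus strand) covered 109 bins at 51.2% GC, and Dnmt3b (ENSMUSG00000027478; chr2:153490861-153529650, plus strand) covered 40 bins at 47.8%. Pou3f1 (ENSMUSG00000090125; chr4:124550600-124554448, plus strand) and Zic2 (ENSMUSG00000061524; chr14:122711827-122717264, plus strand) were the short ones, with 5 and 7 bins at 63.9% and 56.7% GC. Otx2 (ENSMUSG00000021848; chr14:48894099-48911276, minus strand) covered 18 bins at 46%, Sall2 (ENSMUSG00000049532; chr14:52548629-52566219, minus strand) 19 bins at 47.9%, and Lef1 (ENSMUSG00000027985; chr3:130903919-131018005, plus strand) 116 bins at 46.3%. The median protein-coding gene had 45.3% GC. Signal in a bin counts for every gene that touches it: 55.6% of the bins of Otx2, 57.1% of those of Zic2 and 40% of those of Pou3f1 were shared with other genes, antisense transcripts among them, against at most 10.5% for the other 6.

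Promoters of Fgf5 and Dnmt3a are shown because these genes moved furthest in opposite directions in naive QKO cells. Each run is the 250 bases before the annotated start, 5′ to 3′ on the gene's strand, from RefSeq (GRCm38.p6, not the build of the tables), with every CpG in capitals.
Fgf5, chr5:98253934-98254183: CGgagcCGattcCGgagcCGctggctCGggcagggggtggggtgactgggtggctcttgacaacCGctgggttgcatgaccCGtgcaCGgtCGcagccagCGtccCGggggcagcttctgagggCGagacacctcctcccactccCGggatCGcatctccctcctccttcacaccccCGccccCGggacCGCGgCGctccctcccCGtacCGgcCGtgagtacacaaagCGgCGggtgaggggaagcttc
Dnmt3a, chr12:3806730-3806979: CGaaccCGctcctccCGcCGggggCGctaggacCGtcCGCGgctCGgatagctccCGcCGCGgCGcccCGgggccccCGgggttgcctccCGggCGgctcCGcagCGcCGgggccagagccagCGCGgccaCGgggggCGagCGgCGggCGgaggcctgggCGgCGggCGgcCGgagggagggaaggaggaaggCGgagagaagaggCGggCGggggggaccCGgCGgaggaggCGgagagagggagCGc
The Fgf5 run held 24 CpGs and the Dnmt3a run 38, against a median of 6 over 27025 promoters of this length. As many CpGs as Fgf5 were found in 11.7% of those promoters, and as many as Dnmt3a in 1.81%. Both promoters were therefore rich in CpG, whereas the gene bodies behind them lay on opposite sides of the median gene in GC content. RefSeq entries also matched Dnmt3b (21 CpGs), Lef1 (11), Otx2 (6) and Sall2 (0), by the first entry listed for each gene. Promoters of Pou3f1, Zic2 and Cdh2 are not given here. The tables give a value for a whole gene, so occupancy at a promoter was not measured apart from the body.

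In WT naive mESCs, LAP2B for the length of a gene differed widely among the 9. Per 1 kb bin and relative to the median gene, the mean of 3 libraries was lowest over Pou3f1 (0.0890 ± 0.0139 SD, percentile 3.98 of all genes), followed by Fgf5 (0.115 ± 0.0123, percentile 11), Dnmt3b (0.129 ± 0.00875, percentile 17) and Dnmt3a (0.148 ± 0.0214, percentile 25.8), and the libraries of these last 3 genes overlapped from each to the next. Otx2 (0.175 ± 0.0184), Lef1 (0.188 ± 0.0167) and Zic2 (0.189 ± 0.0307), at percentiles 37.6, 42.9 and 43.1, came next and did not differ beyond their spreads. Cdh2 (0.217 ± 0.0197) stood at percentile 52.8, and Sall2 (0.274 ± 0.0289), a zinc finger factor, at percentile 69.4. The ranks of the short genes moved with the stage: in WT EpiLCs Pou3f1 reached 0.266 ± 0.0853 per bin, percentile 80.7, and Zic2 0.288 ± 0.0637, percentile 86.5. Cdh2, on the other hand, stood at 0.156 ± 0.0121 per bin, percentile 15.7. These percentiles take no account of IGG. In WT EpiLCs, relative LAP2B over IGG had log2 ratios of -0.44 for Pou3f1 and -0.09 for Zic2, each with overlap. For Cdh2 the ratio was 0.34.

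The IGG libraries gave a different order. Relative to the median gene, of the 9 genes only Fgf5 and Cdh2 lay above them with both antibodies at both stages. On the relative scale, WT naive LAP2B over Fgf5 was 5.24, 6.43 and 6.23 in replicates 1, 2 and 3, and LMNB1 was 8.55, 6.12 and 6.88. IGG over Fgf5 was 4.83, 3.84 and 3.74. All 6 antibody libraries lay above all 3 IGG libraries, with a log2 ratio of means of 0.53 for LAP2B and 0.80 for LMNB1. Among all genes these ratios stood at percentiles 71.5 and 77.1. Over Cdh2, LAP2B was 51.0, 58.0 and 48.8, LMNB1 was 66.3, 56.3 and 59.5, and IGG was 30.8, 35.3 and 33.6. The ratios of Cdh2 to IGG stood at percentile 77.7 for LAP2B and 79.7 for LMNB1. The same separation held for both genes in EpiLCs, with log2 ratios for LAP2B of 0.23 over Fgf5 (percentile 67.9) and 0.34 over Cdh2 (percentile 74.1). Relative to the median gene, Dnmt3a lay below IGG with both antibodies at both stages: LAP2B (15.5, 14.1 and 18.7) and LMNB1 (11.4, 14.2 and 13.1) stood against IGG (23.8, 26.6 and 25.7) in naive cells without overlap, and the same held in EpiLCs. Otx2, Lef1 and Sall2 were below IGG without overlap with both antibodies in EpiLCs (log2 ratios for LAP2B of -0.56, -0.27 and -0.12). Pou3f1 (-1.52) and Zic2 (-0.62) were so for LAP2B in naive cells, Pou3f1 also for LMNB1 in EpiLCs (-1.33), and Dnmt3b for LMNB1 in naive cells (-0.66) and EpiLCs (-0.60). None of the other 6 genes was above IGG without overlap with either antibody at either stage, and Sall2, which had the most LAP2B per bin of the 9 in naive cells, exceeded IGG there by a log2 ratio of 0.15, with overlap. The antibodies were deposited in separate tables, so these ratios are descriptions and were not tested. They hold relative to the median gene only. As deposited, that gene read 2.12 to 2.87 in WT naive LAP2B and 0.411 to 0.622 in naive IGG. In EpiLCs it read 2.12 to 3.20 and 0.718 to 1.92. A gene below IGG here could therefore lie above it in deposited signal. The share of all genes that separated from IGG without overlap was not counted.

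**Figure D1:**
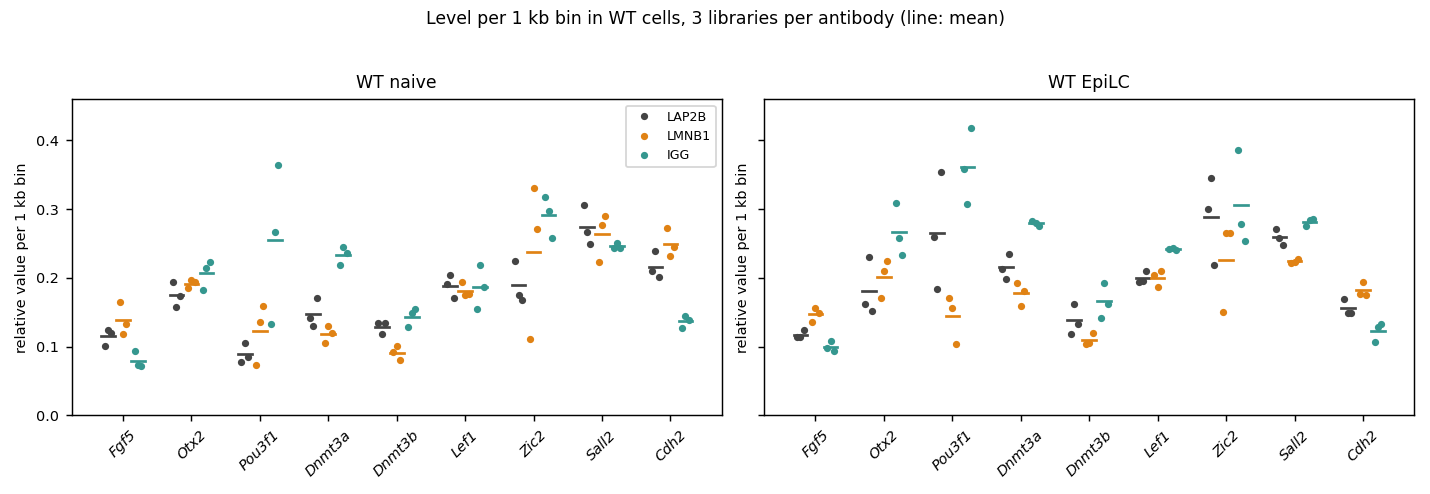
Relative signal per 1 kb bin (vertical axis) over the 9 genes (horizontal axis) in WT naive mESCs, left, and WT EpiLCs, right, with 1 point per library, a line at the mean of 3 and a colour for each of LAP2B, LMNB1 and IGG. Over Fgf5 and Cdh2 the LAP2B and LMNB1 points lie above the IGG points at both stages, and over Dnmt3a they lie below.

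The first question of the design was how removal of LBR, of the lamins, or of both changed LAP2B occupancy in naive mESCs. Relative to the median gene, LAP2B fell over Fgf5 and Cdh2 in all 3 mutants and rose over Otx2, Pou3f1, Dnmt3a and Zic2 in all 3. In LBRKO, 5 of the 9 genes were called higher (28.9% of all genes tested) and 2 lower (27.6%). In TKO, 5 were higher (21.8% of all genes) and 2 lower (27.5%). In QKO, 5 were higher (33.2%) and 3 lower (42.3%). On this scale the share of the 9 that was higher, 5 of 9 in each mutant, was above that of all genes. The share that was lower was near or below it. Whether the 9 differed as a set was not tested, and they were chosen with earlier results of these data known. The median log2 change over the 9 was 0.82, 0.35 and 0.59 in LBRKO, TKO and QKO, against 0.05, -0.11 and -0.22 over all genes. The 3 contrasts share the same 3 WT libraries.

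Fgf5, the secreted growth factor that is the classic label of the primed epiblast, had the lowest log2 change of the 9 in TKO and QKO, and Cdh2 had it in LBRKO. Relative LAP2B was 5.24, 6.43 and 6.23 for WT, 3.31, 3.03 and 4.30 for LBRKO, 3.20, 3.35 and 3.34 for TKO, and 1.39, 2.35 and 1.60 for QKO. Every mutant library lay below every WT library, and the 3 QKO libraries lay below those of the other mutants. The level in LBRKO was 0.595 of WT (log2 -0.74, SE 0.15, adjusted p = 3.75e-05), that in TKO was 0.553 of WT (log2 -0.83, SE 0.15, adjusted p = 8.25e-06), and that in QKO was 0.299 of WT (log2 -1.72, SE 0.15, adjusted p = 6.59e-15). The relative QKO mean of 1.78 ± 0.506 was under the relative naive IGG mean of 4.14 ± 0.605.

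Genes around Fgf5 moved in the same direction. Of its 24 neighbours, tested genes within 500 kb that share no bin with it, 21, 19 and 23 were called lower in LBRKO, TKO and QKO, and none was called higher in any of the 3. Their median log2 change was -1.07, -1.12 and -1.67.

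Cdh2 (ENSMUSG00000024304; GRCm39 chr18:16700793-16942381, minus strand), the calcium-dependent adhesion molecule N-cadherin, fell too, though in a different order of genotypes. Its 3 libraries read 51.0, 58.0 and 48.8 for WT, 29.0, 26.5 and 28.0 for LBRKO, 41.8, 36.5 and 38.8 for TKO, and 23.2, 26.3 and 25.0 for QKO. TKO libraries lay between WT and LBRKO without overlap with either. The log2 change was -0.91 in LBRKO (SE 0.09, adjusted p = 2.25e-12), -0.43 in TKO (SE 0.09, adjusted p = 0.000102) and -1.08 in QKO (SE 0.09, adjusted p = 1.80e-15). The TKO call was the one that depended on the scaling: with libraries divided by their mean in place of their median, its adjusted p was 0.313. Among the 11 neighbours of Cdh2, 10, 7 and 10 were called lower and none higher, with medians of -1.12, -0.51 and -1.14.

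Dnmt3a, a methyltransferase that places new methyl groups on CpGs, had the highest log2 change of the 9 in LBRKO and QKO, and Pou3f1 and Zic2 exceeded it in TKO. Its relative LAP2B was 15.5, 14.1 and 18.7 for WT, 31.1, 34.8 and 31.4 for LBRKO, 28.9, 29.7 and 27.0 for TKO, and 52.5, 44.0 and 47.9 for QKO. Each mutant was separate from WT, and QKO was separate from the other mutants as well. The ratio to WT was 2.01 in LBRKO (log2 1.01, SE 0.10, adjusted p = 2.47e-12), 1.77 in TKO (log2 0.83, SE 0.10, adjusted p = 1.78e-09) and 2.99 in QKO (log2 1.58, SE 0.10, adjusted p = 5.87e-20). On this relative scale WT lay below the IGG level of this gene (25.4 ± 1.42), and LBRKO (32.4 ± 2.05), TKO (28.6 ± 1.41) and QKO (48.1 ± 4.25) above it. Of its 29 neighbours, 16, 16 and 27 were called higher and none lower.

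Dnmt3b, the partner enzyme with the same activity, followed Dnmt3a in LBRKO and QKO but not in TKO. It read 5.35, 4.75 and 5.37 for WT, 9.05, 10.3 and 8.71 for LBRKO, 5.09, 5.28 and 4.85 for TKO, and 10.3, 8.68 and 8.90 for QKO. LBRKO and QKO overlapped each other and were separate from WT and TKO, which overlapped. The log2 change was 0.84 in LBRKO (SE 0.12, adjusted p = 8.60e-08) and 0.84 in QKO (adjusted p = 3.81e-08). In TKO it was -0.02, with a 95% confidence interval of -0.26 to 0.22 and an adjusted p of 0.900. Of its 50 neighbours, 18 were nevertheless called higher in TKO and 6 lower, with a median of 0.37.

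Among the transcription factors, Otx2, Pou3f1 and Zic2 gained relative LAP2B in every naive mutant. Otx2, a homeodomain factor that drives exit from the naive state, read 3.5, 2.84 and 3.12 for WT, 6.01, 5.02 and 5.87 for LBRKO, 5.14, 3.90 and 5.33 for TKO, and 4.93, 3.71 and 5.91 for QKO. All 9 mutant libraries were above the 3 WT libraries, while TKO and QKO overlapped. The log2 change was 0.82 in LBRKO, 0.58 in TKO and 0.59 in QKO (SE 0.16 in each, adjusted p at most 0.00183). Its surroundings did not follow in TKO and QKO: 2 of 39 neighbours were called higher in each, with medians of -0.09 and -0.08, against 15 higher and none lower in LBRKO.

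Pou3f1, a POU domain factor also known as Oct6, had the lowest read counts of the 9. It read 0.389, 0.523 and 0.423 for WT, 0.933, 0.902 and 0.771 for LBRKO, 1.01, 1.57 and 0.701 for TKO, and 1.52, 1.36 and 1.29 for QKO. Again no mutant library reached down to WT. The log2 change was 0.83 in LBRKO (SE 0.25, adjusted p = 0.00443), 1.08 in TKO (adjusted p = 0.000395) and 1.46 in QKO (adjusted p = 1.16e-06). Of its 51 neighbours, 29, 26 and 39 were called higher and none lower.

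Zic2, a zinc finger factor of the primed enhancers, read 1.57, 1.23 and 1.17 for WT, 2.29, 2.43 and 2.93 for LBRKO, 2.71, 2.17 and 3.82 for TKO, and 4.22, 3.21 and 3.69 for QKO. The mutants were all above WT, TKO overlapped both other mutants, and QKO lay above LBRKO. The log2 change was 0.90 in LBRKO (SE 0.19, adjusted p = 9.03e-05), 1.05 in TKO (adjusted p = 1.04e-05) and 1.42 in QKO (adjusted p = 4.21e-09). Of its 32 neighbours, 23 were called higher and none lower in LBRKO (median 0.75), 8 higher and 7 lower in TKO (median 0.01), and 14 higher and 8 lower in QKO (median 0.33).

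Relative to the median gene, Lef1 was called in QKO only among the naive mutants, and Sall2 in TKO only. Lef1, a DNA-binding partner of beta-catenin, read 22.2, 23.6 and 19.8 in WT and 13.9, 17 and 15.4 in QKO, a separation without overlap (log2 -0.50, SE 0.10, adjusted p = 8.58e-06). In LBRKO (log2 -0.04, 95% confidence interval -0.23 to 0.15) and TKO (log2 -0.02, interval -0.21 to 0.17) its libraries overlapped WT. In QKO 34 of the 52 neighbours of Lef1 were called lower and 1 higher. Sall2 read 5.82, 5.07 and 4.75 in WT and 7.33, 6.68 and 5.99 in TKO, where it was called higher (log2 0.35, SE 0.13, adjusted p = 0.0199). That call ended without WT naive replicate 2 or 3 or TKO naive replicate 1 (adjusted p up to 0.104) and with only the groups compared (adjusted p = 0.0677). In LBRKO Sall2 libraries (4.50, 4.52 and 4.52) lay below WT and in QKO (6.11, 5.88 and 6.62) above it, and neither change passed the test (adjusted p = 0.180 and 0.0706).

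**Figure D2:**
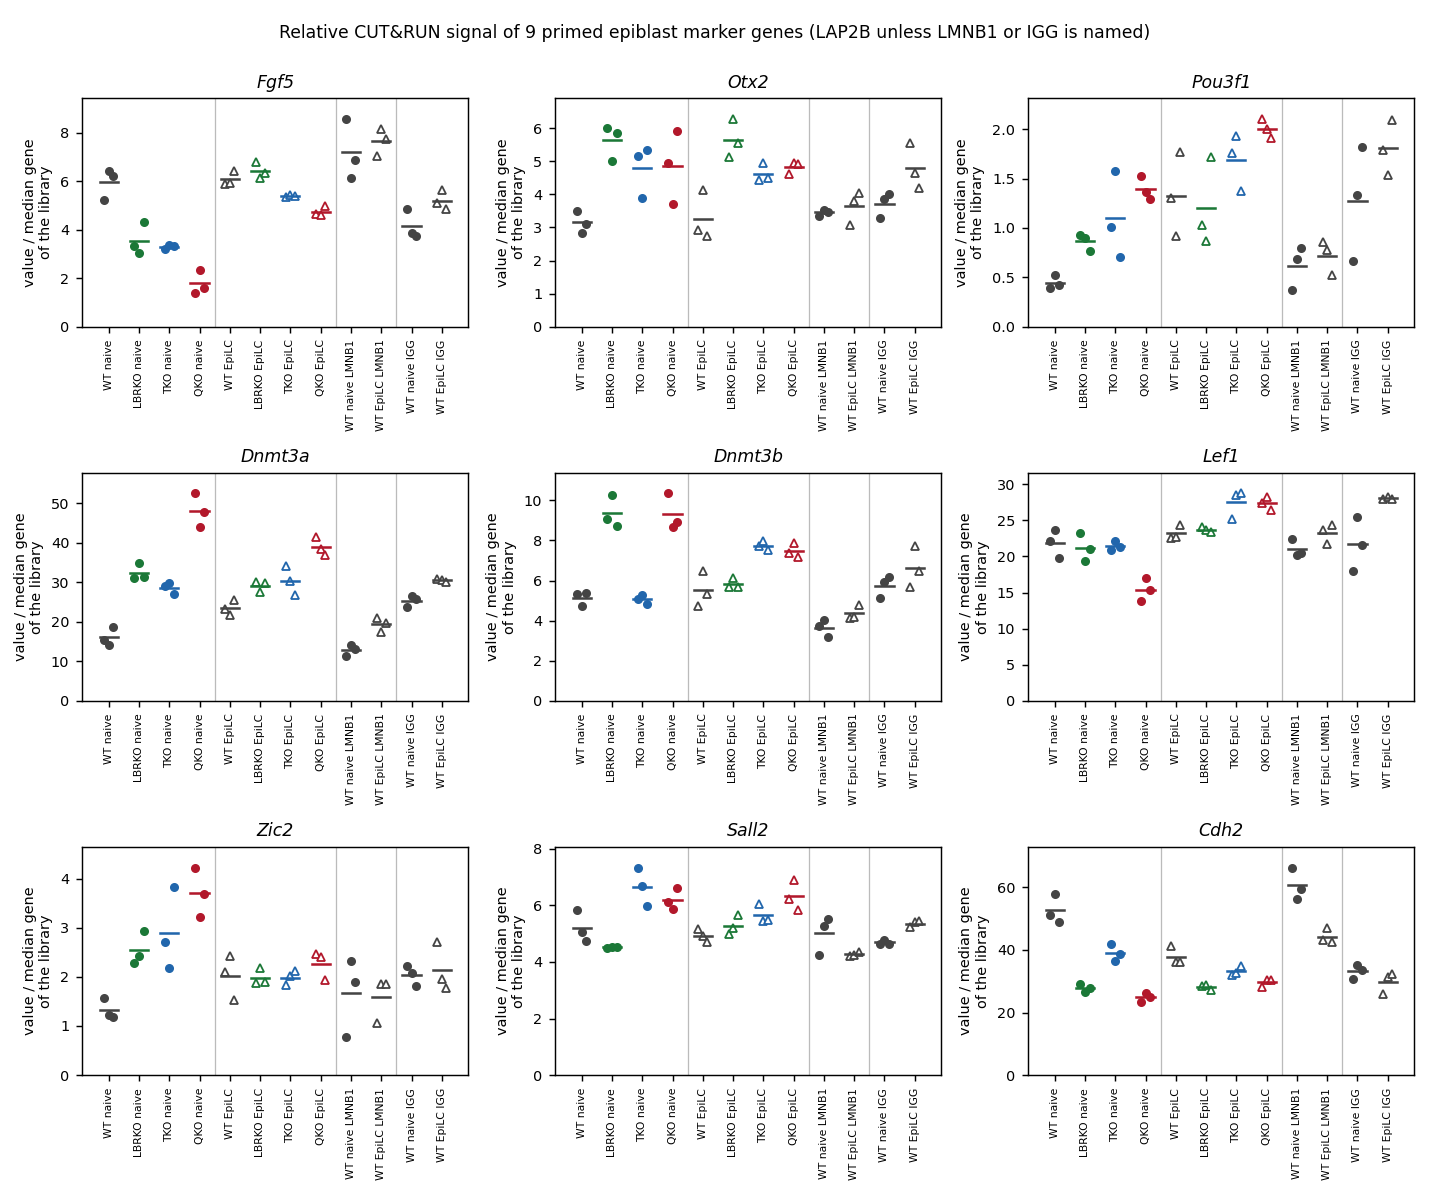
Relative signal (value divided by the median gene of the library, vertical axis) of each of the 9 genes in all 36 libraries, 1 panel per gene, with 1 point per library and a line at the mean of 3. Circles are naive mESCs, triangles are EpiLCs, colours are genotypes, and groups are LAP2B unless LMNB1 or IGG is named. In naive cells the 9 mutant libraries lie below the 3 WT libraries over Fgf5 and Cdh2 and above them over Otx2, Pou3f1, Dnmt3a and Zic2.

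Base composition moved with the naive changes. Over the 9 genes, the naive log2 change correlated with gene-body GC content at Pearson r = 0.709 in LBRKO, 0.858 in TKO and 0.810 in QKO, as a description over 9 genes measured in the same libraries. In EpiLCs the same correlation was -0.0482, 0.380 and 0.614. IGG was mapped in WT cells only, and the part of background signal or base composition in these changes was not tested.

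In spike-in units, as deposited, Cdh2 was called lower in all 3 naive mutants, and Fgf5 in TKO and QKO. The median gene changed from naive WT by 0.21 (LBRKO), -0.64 (TKO) and -1.23 (QKO) on the log2 scale. A gene could thus rise relative to the others and still fall in deposited signal. Deposited values are also divided by depth, so these are not changes in total level alone. In LBRKO, 5 of the 9 genes were called higher (28.2% of all genes) and 1 lower (17.7%): Otx2 (log2 1.00), Pou3f1 (1.01), Dnmt3a (1.20), Dnmt3b (1.03) and Zic2 (1.09) rose, and Cdh2 (-0.73) fell. The Cdh2 call ended without WT naive replicate 2 (adjusted p = 0.0640) and when reads were multiplied by the spike-in factor (adjusted p = 0.204). In TKO, 4 genes were called lower (47.4% of all genes) and none higher (2.43%): Fgf5 (-1.44), Cdh2 (-1.05), Lef1 (-0.64) and Dnmt3b (-0.63). The Lef1 and Dnmt3b calls in TKO each ended without WT naive replicate 2 or without TKO naive replicate 1 or 3, and that of Dnmt3b also without WT naive replicate 3 (adjusted p 0.0563 to 0.154). With only the groups compared both ended (adjusted p = 0.0707 and 0.0875). In QKO, 5 were called lower (65.3%) and none higher (10.2%): Fgf5 (-2.88), Cdh2 (-2.32), Lef1 (-1.74), Sall2 (-0.97) and Otx2 (-0.62). The Otx2 call in QKO ended without WT naive replicate 2 (adjusted p = 0.0624) or without QKO naive replicate 2 (adjusted p = 0.245), and when reads were multiplied by the spike-in factor (log2 -0.25, adjusted p = 0.309).

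The deposited signal of Fgf5 was 11.1, 18.5 and 14.8 for WT naive cells, 7.61, 8.53 and 14.0 for LBRKO, 4.03, 7.02 and 4.97 for TKO, and 1.51, 2.17 and 1.72 for QKO. LBRKO overlapped WT and its change was not called (log2 -0.57, adjusted p = 0.0641), whereas TKO and QKO lay below WT. The QKO mean was 0.122 of WT (log2 -2.88, SE 0.26, adjusted p = 1.03e-26), and the naive IGG libraries read 2.80, 1.58 and 2.32. Otx2 had opposite signs on the scales: 7.41, 8.15 and 7.39 in WT against 5.38, 3.43 and 6.36 in QKO as deposited, and higher in QKO relative to the median gene. Sall2 and Dnmt3b also turned sign in QKO, though the deposited values of Dnmt3b did not pass the test (log2 -0.39, adjusted p = 0.149). Dnmt3a stayed near its WT level in TKO (log2 0.21, adjusted p = 0.462) and QKO (log2 0.34, adjusted p = 0.166) as deposited, with overlapping libraries.

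**Figure D3:**
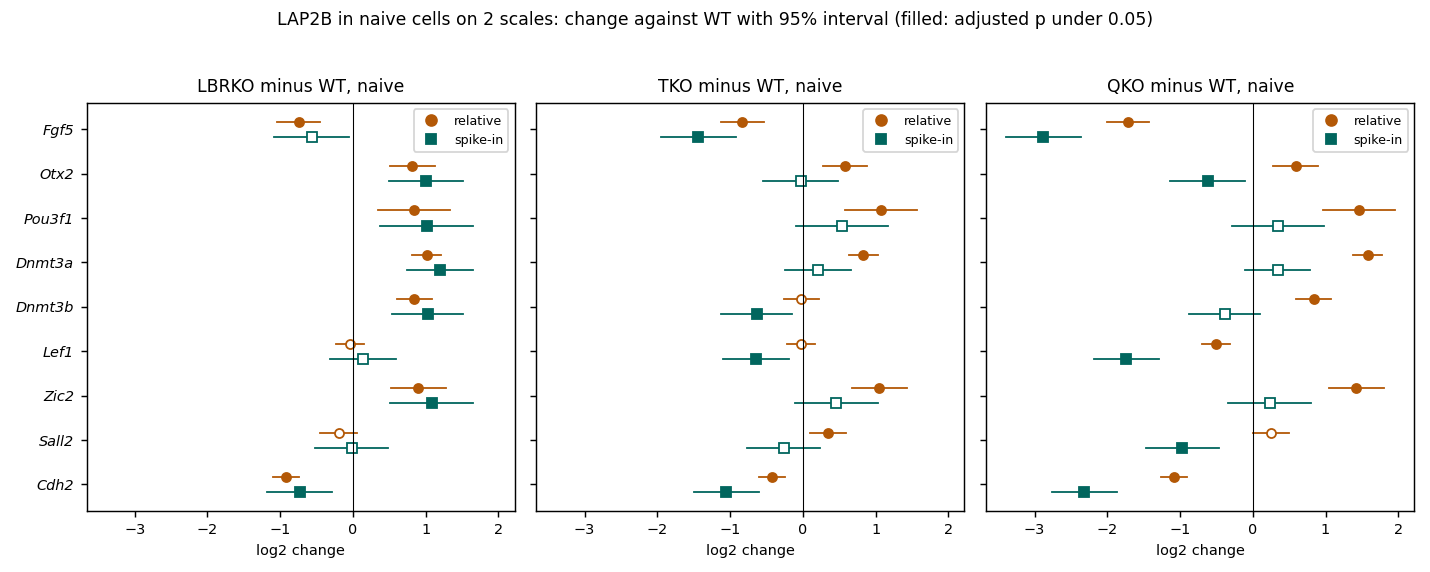
Log2 change of LAP2B from WT in naive mESCs (horizontal axis) for the 9 genes, 1 panel per mutant, on the relative scale (circles) and the spike-in scale (squares), with 95% confidence intervals from limma and filled symbols for an adjusted p under 0.05. Fgf5 and Cdh2 lie below 0 on both scales in all 3 mutants, and in QKO Otx2, Dnmt3b and Sall2 lie above 0 on the relative scale and below 0 on the spike-in scale.

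In EpiLCs the same comparison gave fewer and smaller changes over these genes. On the relative scale, 2 of the 9 were called higher in LBRKO (13.3% of all genes) and 1 lower (10.1%). In TKO 3 were higher (8.68%) and 0 lower (9.94%). In either direction, edgeR called 3 of the 9 in TKO and 5 had an unadjusted p under 0.05, and the limma count went down to 1 without WT EpiLC replicate 1. In QKO 5 were higher (18.3%) and 1 lower (17.8%). Otx2 and Dnmt3a were called higher in all 3 mutants at both stages. The EpiLC libraries of Otx2 read 2.92, 4.14 and 2.73 for WT, 5.14, 6.27 and 5.54 for LBRKO, 4.43, 4.94 and 4.50 for TKO, and 4.62, 4.96 and 4.91 for QKO, with no mutant library down to WT. The log2 change was 0.79 in LBRKO (adjusted p = 8.79e-05), 0.51 in TKO (adjusted p = 0.0171) and 0.57 in QKO (adjusted p = 0.00310). The TKO call ended without WT EpiLC replicate 1 or 3 or TKO EpiLC replicate 2 (adjusted p up to 0.101). In LBRKO, 16 of the 39 neighbours of Otx2 were called higher too, against 2 in each of TKO and QKO.

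Dnmt3a rose in all 3 EpiLC mutants as well, by less than in naive cells. It read 23.3, 21.7 and 25.6 for WT, 30.2, 27.4 and 29.9 for LBRKO, 34.0, 30.3 and 26.8 for TKO, and 41.5, 38.3 and 37.0 for QKO. The QKO change was the firm one (log2 0.73, SE 0.10, adjusted p = 1.35e-07). The LBRKO call (log2 0.31, adjusted p = 0.0181) ended without WT EpiLC replicate 2 or LBRKO EpiLC replicate 1 or 3 (adjusted p up to 0.102) and under division by the mean (0.0709). The TKO call (log2 0.36, adjusted p = 0.00842) ended without TKO EpiLC replicate 1 (adjusted p = 0.0918).

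Dnmt3b was called higher in TKO (7.73, 7.99 and 7.51) and QKO (7.40, 7.89 and 7.15) against WT (4.73, 6.50 and 5.34), and was not in LBRKO (5.67, 6.15 and 5.68). The log2 changes of 0.49 and 0.44 (adjusted p = 0.00395 and 0.00407) were both lost without WT EpiLC replicate 1 (adjusted p = 0.0614 and 0.0558). In naive cells, by contrast, Dnmt3b was called in LBRKO and QKO. The difference between stages in its TKO effect was 0.51, with an adjusted p of 0.0519.

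Cdh2 fell in LBRKO EpiLCs (28.3, 28.8 and 27.1 against 41.3, 36.2 and 36.2 in WT; log2 -0.43, adjusted p = 0.000245) and in QKO EpiLCs (28.3, 30.5 and 30.4; log2 -0.35, adjusted p = 0.00208). Its TKO libraries (31.9, 32.7 and 34.9) were below WT without overlap, and the change did not pass the test (log2 -0.19, adjusted p = 0.137). Fgf5, which had fallen in every naive mutant, had no called change in EpiLCs on the relative scale: 5.90, 5.94 and 6.43 for WT, 6.79, 6.12 and 6.34 for LBRKO, 5.33, 5.41 and 5.40 for TKO, and 4.62, 4.61 and 4.96 for QKO. The QKO libraries were the lowest (log2 -0.36, adjusted p = 0.0561), and 12 of the 24 neighbours of Fgf5 were called lower there.

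In QKO EpiLCs Lef1 (log2 0.24, adjusted p = 0.0492) and Sall2 (log2 0.35, adjusted p = 0.0256) were just past the threshold. The Lef1 call ended without any one library except WT EpiLC replicate 3 (adjusted p up to 0.145), with no filter on low values (adjusted p = 0.0512) and with the replicate block (adjusted p = 0.0531), and the Sall2 call ended without WT EpiLC replicate 2 or 3 or QKO EpiLC replicate 1 or 2 (adjusted p up to 0.131). Pou3f1 gave a log2 change of 0.60 in QKO EpiLCs with an adjusted p of 0.0563. Zic2, which had risen in every naive mutant, gave -0.00, -0.00 and 0.18 in LBRKO, TKO and QKO EpiLCs, with a 95% confidence interval of -0.38 to 0.37 in each of LBRKO and TKO.

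In spike-in units as deposited, the calls over the 9 genes in EpiLC mutants were mostly losses in QKO. That picture depended on the scaling. With reads multiplied by the spike-in factor, more of the 9 were called in LBRKO EpiLCs and fewer in QKO EpiLCs. Over all genes, calls then went from 6329 to 24170 in LBRKO (95.9% of them higher) and from 39112 to 20992 in QKO. In LBRKO 1 gene, Otx2, was called higher (5.54% of all genes; log2 0.83, adjusted p = 0.0243), and that call ended without any one library except WT EpiLC replicate 2 (adjusted p up to 0.118). In TKO limma called 0 of the 9 (9.42% of all genes called in either direction, or 6630 genes, and 178 genes with only the groups compared), edgeR called 0, and 1 had an unadjusted p under 0.05. Without WT EpiLC replicate 2 or TKO EpiLC replicate 1, limma called 1 lower in TKO. In QKO 4 were called lower (55.5% of all genes), Fgf5 (-1.23), Cdh2 (-1.23), Zic2 (-0.67) and Lef1 (-0.64), where the median gene changed by -0.75. The Lef1 call ended without WT EpiLC replicate 1 or 3 or QKO EpiLC replicate 3, and the Zic2 call without these or QKO EpiLC replicate 2 (adjusted p 0.0515 to 0.167). Both were also lost when reads were multiplied by the spike-in factor (adjusted p = 0.620 and 0.609), and that of Zic2 with a pseudocount of 1 × the median (adjusted p = 0.0504) and with the replicate block (adjusted p = 0.0507).

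**Figure D4:**
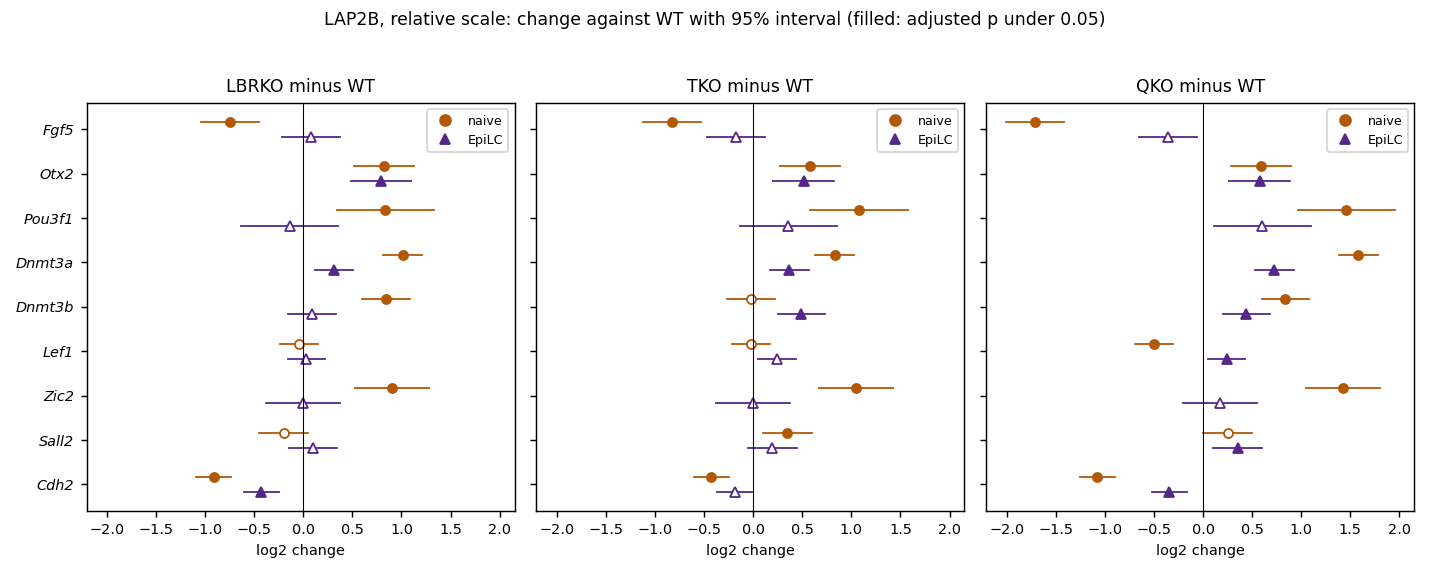
Log2 change of relative LAP2B from WT (horizontal axis) for the 9 genes, 1 panel per mutant, in naive mESCs (circles) and EpiLCs (triangles), with 95% confidence intervals from limma and filled symbols for an adjusted p under 0.05. Values of Fgf5, Dnmt3a and Zic2 lie closer to 0 in EpiLCs than in naive cells in each mutant, and those of Otx2 lie side by side.

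The next question was whether the LAP2B signal of these genes changed as naive cells became EpiLCs, the step at which they are normally switched on. Because LAP2B in EpiLCs also marked DNA outside lamina-associated domains, the stage changes are changes of signal and not of position. In WT, 3 of the 9 were called higher in EpiLCs (15.1% of all genes) and 1 lower (17.1%) on the relative scale. Pou3f1 made the largest move, from 0.389, 0.523 and 0.423 in naive cells to 1.30, 0.917 and 1.77 in EpiLCs. This was a ratio of 2.99 (log2 1.35, SE 0.25, adjusted p = 4.65e-05), at percentile 99.7 of all changes, and 29 of its 51 neighbours rose with none lower. Dnmt3a rose by 0.55 (SE 0.10, adjusted p = 3.60e-05) and Cdh2 fell by 0.47 on the log2 scale (SE 0.09, adjusted p = 7.16e-05), each with libraries that did not overlap between stages. Zic2 was called higher (log2 0.56, adjusted p = 0.0208) although its stages overlapped, 1.57, 1.23 and 1.17 against 2.10, 2.42 and 1.54, and the call ended without WT naive replicate 2 or 3 or WT EpiLC replicate 1 or 2 (adjusted p up to 0.138) and with only the groups compared (adjusted p = 0.0785). Fgf5 gave 0.03, with a 95% confidence interval of -0.26 to 0.33, and Otx2 0.03, with an interval of -0.28 to 0.34.

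The stage change of Fgf5 appeared in the mutants. In LBRKO it rose from 3.31, 3.03 and 4.30 to 6.79, 6.12 and 6.34 (log2 0.85, SE 0.15, adjusted p = 2.92e-05). In TKO it rose from 3.20, 3.35 and 3.34 to 5.33, 5.41 and 5.40 (log2 0.69, adjusted p = 0.000437), and in QKO from 1.39, 2.35 and 1.60 to 4.62, 4.61 and 4.96 (log2 1.39, adjusted p = 1.30e-10). The naive and EpiLC libraries were separate in each mutant and overlapped in WT. In QKO the change stood at percentile 99.9 of all genes, and 18 of the 24 neighbours of Fgf5 were called higher with it.

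In LBRKO 1 of the 9 genes was called higher in EpiLCs (7.87% of all genes) and 1 lower (10%), the latter being Dnmt3b (log2 -0.67, adjusted p = 6.66e-05). In TKO 3 were higher (14.0%) and 0 lower (10.1%), where edgeR called 4 of the 9 and 6 had an unadjusted p under 0.05. Besides Fgf5 these were Dnmt3b (log2 0.60, adjusted p = 0.000222) and Lef1 (log2 0.35, adjusted p = 0.00528). The TKO count rose to 6 without TKO naive replicate 2. In QKO 3 were higher (21.7%) and 3 lower (19.9%). Lef1 rose there from 13.9, 17 and 15.4 to 27.4, 28.2 and 26.5 (log2 0.83, adjusted p = 1.20e-09), with 32 of its 52 neighbours, and Zic2 fell from 4.22, 3.21 and 3.69 to 2.47, 2.40 and 1.93 (log2 -0.69, adjusted p = 0.00328). The other QKO calls, Cdh2 (0.26), Dnmt3a (-0.30) and Dnmt3b (-0.31), were small. All 3 ended without QKO naive replicate 1 or QKO EpiLC replicate 3, that of Cdh2 also without QKO EpiLC replicate 2, and that of Dnmt3b also without QKO naive replicate 3 or QKO EpiLC replicate 1 (adjusted p 0.0566 to 0.200). The Dnmt3a and Dnmt3b calls also ended with libraries divided by their mean (adjusted p = 0.0666 and 0.112). Otx2 and Sall2 had no called stage change in any genotype.

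As deposited, 2 of the 9 were called higher in WT EpiLCs (10.4% of all genes), Pou3f1 (log2 1.54) and Dnmt3a (0.72), the latter lost without WT naive replicate 1 or WT EpiLC replicate 1 or 3 (adjusted p up to 0.215) and with only the groups compared (adjusted p = 0.0984). In LBRKO 1 was higher (0.851% of all genes), Fgf5 (0.88), and the call ended without any one library except LBRKO naive replicate 3 (adjusted p up to 0.213), with the replicate block (adjusted p = 0.0718) and by edgeR (adjusted p = 0.0684). In TKO 5 were higher (33.7%), Fgf5 (1.20), Dnmt3b (1.12), Pou3f1 (1.11), Lef1 (0.88) and Dnmt3a (0.61), where the median gene rose by 0.53. The Pou3f1 and Dnmt3a calls ended without TKO naive replicate 1 or 3 or TKO EpiLC replicate 1 (adjusted p 0.0539 to 0.441). With only the groups compared, the Pou3f1, Dnmt3a and Lef1 calls ended (adjusted p = 0.0620, 0.222 and 0.0832). In QKO 4 were higher (33.0%), Fgf5 (1.86), Lef1 (1.35), Pou3f1 (0.96) and Cdh2 (0.79), where the median gene rose by 0.51. The Pou3f1 call in QKO ended without QKO naive replicate 2 or QKO EpiLC replicate 1 (adjusted p up to 0.0630). None of the 9 was called lower between stages on this scale, where 1.74%, 1.20%, 0.830% and 2.53% of all genes were in WT, LBRKO, TKO and QKO.

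**Figure D5:**
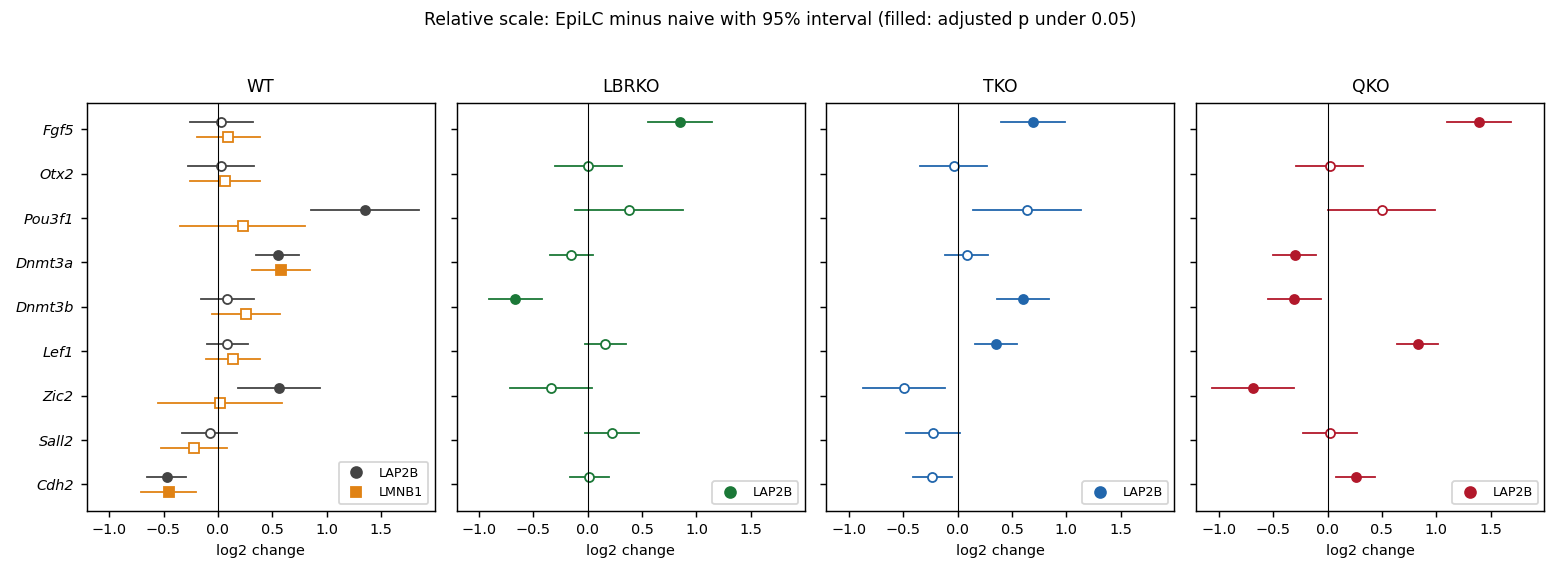
Log2 change of the relative signal from naive mESCs to EpiLCs (horizontal axis) for the 9 genes, 1 panel per genotype, for LAP2B (circles) and, in WT, LMNB1 (squares), with 95% confidence intervals from limma and filled symbols for an adjusted p under 0.05. Pou3f1 has the largest LAP2B value in WT, and Fgf5 lies near 0 in WT and above 0 in the 3 mutants.

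Whether a mutation acted differently at the stages was tested directly, as the effect in EpiLCs minus that in naive cells on the relative scale. For LBRKO 2 of the 9 differences were called higher (10.2% of all genes) and 4 lower (9.55%). For TKO 1 was higher (5.77%) and 2 lower (3.81%), and the total of 3 went down to 1 without TKO naive replicate 1 or 3, WT EpiLC replicate 3, or TKO EpiLC replicate 2 or 3. For QKO 3 were higher (24.8%) and 3 lower (21.0%). Fgf5 differed in all 3 mutants, with LBRKO at 0.82 (SE 0.21, adjusted p = 0.00444), TKO at 0.66 (adjusted p = 0.0385) and QKO at 1.36 (adjusted p = 6.59e-07): the naive loss was not matched in EpiLCs. The TKO difference of Fgf5 was fragile and ended without any one library except WT naive replicate 1 and TKO naive replicate 2 (adjusted p up to 0.0928), and with libraries divided by their mean it was 0.42 (adjusted p = 0.240). Dnmt3a (-0.70, -0.47 and -0.85 for LBRKO, TKO and QKO) and Zic2 (-0.90, -1.05 and -1.25) differed in the opposite direction in all 3. Cdh2 differed in LBRKO (0.49) and QKO (0.73), Lef1 in QKO (0.74), Dnmt3b in LBRKO (-0.76), and Pou3f1 in LBRKO (-0.97) and QKO (-0.86). The Pou3f1 differences were fragile: in LBRKO the call held without WT naive replicate 2, WT EpiLC replicate 2 or LBRKO EpiLC replicate 3 and ended without any other library (adjusted p up to 0.164), and in QKO it held without WT naive replicate 2 or WT EpiLC replicate 2 and ended without any other (up to 0.163). With a pseudocount of 1 × the median they were -0.45 in LBRKO (adjusted p = 0.106) and -0.34 in QKO (adjusted p = 0.162), and the LBRKO call also ended with the replicate block (adjusted p = 0.0509) and with only the groups compared (adjusted p = 0.0800). The Zic2 call ended without LBRKO naive replicate 3 or WT EpiLC replicate 2 in LBRKO (adjusted p up to 0.0580) and without TKO naive replicate 3 in TKO (0.0528). The Dnmt3a call in TKO ended without WT naive replicate 1 or 2, TKO naive replicate 1 or 2, WT EpiLC replicate 3, or TKO EpiLC replicate 2 or 3 (adjusted p up to 0.122) and with only the groups compared (adjusted p = 0.0621). For Otx2 the 3 differences were -0.03, -0.07 and -0.01, and the 95% confidence interval in QKO ran from -0.45 to 0.42.

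LMNB1, the lamin mapped in WT only, changed between stages over Dnmt3a and Cdh2. On the relative scale 1 of the 9 was called higher in EpiLCs (6.34% of all genes) and 1 lower (7.08%). Dnmt3a rose from 11.4, 14.2 and 13.1 to 21.0, 17.4 and 19.6 (log2 0.58, SE 0.13, adjusted p = 0.00709), and Cdh2 fell from 66.3, 56.3 and 59.5 to 43.1, 47.1 and 42.6 (log2 -0.45, adjusted p = 0.0233). Neither gene overlapped between stages. The Dnmt3a call ended without WT EpiLC replicate 1 (adjusted p = 0.0763), and the Cdh2 call without WT naive replicate 3 or WT EpiLC replicate 1 or 3 (adjusted p up to 0.138) and with the replicate block (adjusted p = 0.113). Pou3f1, which had changed most in LAP2B, gave 0.23 in LMNB1 with an adjusted p of 0.639. On the spike-in scale Dnmt3a was the 1 gene called higher (7.98% of all genes; log2 0.87), and the call ended without WT naive replicate 1 or WT EpiLC replicate 1 or 3 (adjusted p up to 0.295) or with the replicate block (adjusted p = 0.0658), while 2 genes were called without WT EpiLC replicate 2.

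In the IGG background, limma called 0 of the 9 between stages on the relative scale (0.490% of all genes) and edgeR called 0, while 5 had an unadjusted p under 0.05. Without WT naive replicate 2 of IGG, 1 was called. The IGG change was positive for 8 of the 9, with 0.56 for Pou3f1, 0.38 for Lef1 and 0.26 for Dnmt3a. As deposited, limma called 0 (0% of all genes), edgeR called 0 and 7 had an unadjusted p under 0.05. EpiLC replicate 2 of IGG stood high there, with a deposited Fgf5 signal of 10.8 against 4.66 and 3.49 in the others. It was also the shallowest EpiLC library of IGG, with 14058614 reads. Without EpiLC replicate 3 of IGG, limma called 6 of the 9.

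Genes of the same pathways, taken from lists of names, gave the naive gains of the 9 a wider setting. Of 18 other formative and primed epiblast genes tested, 14 were called higher and none lower in naive LBRKO, 12 higher and 1 lower in TKO, and 14 higher and 1 lower in QKO, with medians of 0.71, 0.67 and 1.07, where 28.9%, 21.8% and 33.2% of all genes were called higher. In QKO these included Etv4 (log2 3.00), an effector of FGF signalling, and Nodal (2.87), the ligand of the activin pathway, while Lin28b (-1.39), an RNA-binding protein that blocks let-7, was lower. Naive pluripotency genes moved the same way: 9, 11 and 12 of 14 were called higher and none lower, with medians of 0.53, 0.87 and 0.95, and in QKO the Krüppel-like factor Klf2 gained 2.91. Of 19 family relatives of the 9 genes, 13, 13 and 15 were higher and 1, 0 and 3 lower, among them Cdh1 (2.57 in QKO), the E-cadherin counterpart of Cdh2, and Pou3f4 (-2.43), a paralog of Pou3f1. In spike-in units, 13 primed genes were higher and 0 lower for LBRKO, 9 naive genes were higher and 0 lower, and 10 relatives were higher and 1 lower, where 28.2% of all genes were called higher and 17.7% lower. For TKO, 3 primed genes were higher and 3 lower, 1 naive gene was higher and 0 lower, and 2 relatives were higher and 2 lower, where 2.43% of all genes were called higher and 47.4% lower. For QKO these counts were 5 and 4 primed, 3 and 4 naive, and 6 and 6 relatives, where 10.2% of all genes were called higher and 65.3% lower.

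On the relative scale in EpiLCs, 2 of the 18 primed genes (median 0.19) and 4 of the 14 naive genes (median 0.26) were called higher in LBRKO, where 13.3% of all genes were. For TKO these counts were 5 primed (median 0.39) and 1 naive (median 0.09), against 8.68% of all genes. For QKO they were 12 primed (median 0.55) and 2 naive (median -0.01), against 18.3% of all genes. No gene of either list was called lower in any EpiLC mutant on this scale. Over all genes, 10.1%, 9.94% and 17.8% were lower in LBRKO, TKO and QKO. Of the 19 relatives, 3, 8 and 10 were higher and 1, 1 and 2 lower in the same order. In spike-in units none of either list was higher in QKO EpiLCs, and 3 of the 18 primed and 11 of the 14 naive genes were lower, against 55.5% of all genes. Between stages on the relative scale, 1, 5, 11 and 12 of the 14 naive genes were called lower for WT, LBRKO, TKO and QKO, and 2, 0, 0 and 0 higher, with medians of 0.04, -0.34, -0.72 and -1.05. Of the 18 primed genes, 2, 5, 2 and 10 were lower and 5, 2, 2 and 1 higher in the same order, with medians of 0.22, -0.30, -0.01 and -0.42. Over all genes, 17.1%, 10%, 10.1% and 19.9% were lower and 15.1%, 7.87%, 14.0% and 21.7% higher. In spike-in units 5, 0, 6 and 3 of the primed genes and 1, 0, 0 and 0 of the naive genes were higher, where 10.4%, 0.851%, 33.7% and 33.0% of all genes were. In the same units 0, 0, 0 and 1 of the primed and 0, 0, 1 and 5 of the naive genes were lower, against 1.74%, 1.20%, 0.830% and 2.53% of all genes. Whether the lists differed from each other was not tested.

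Across the 24 LAP2B libraries, the 9 genes did not share a single profile. Relative values of Fgf5 and Lef1 were the most alike of the 36 pairs (Pearson r = 0.773), and those of Dnmt3a and Cdh2 the most opposed (r = -0.896). Compared with protein-coding genes over 1 Mb away or on other chromosomes, the gene most like Fgf5 was Nr3c1 (r = 0.966) and the one most like Dnmt3a was Pml (r = 0.966). Further best matches were Cdk20 for Otx2 (0.863), Inpp4a for Pou3f1 (0.896), Mad1l1 for Dnmt3b (0.949), Fam50b for Lef1 (0.878), Psme1 for Zic2 (0.903) and Timm44 for Sall2 (0.858). These values describe 24 libraries in 8 groups, which share their scaling and depth, and carry no test.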

How the data were processed

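LAP2B, LMNB1 and IGG CUT&RUN libraries were analysed from 3 gene tables, 1 per antibody. According to the submitters' processing notes, reads were aligned with Bowtie2 2.3.5.1 to mm39 and to yeast (sacCer3) and handled with SAMtools 1.10 and deepTools. The authors deposited a spike-in-scaled signal per gene, used here as summed over all 1 kb bins touched by a gene. That step is inferred from the values: in 343 of 343 sets of genes within a single bin, all values were equal (tolerance 0.0001). Values thus went by bin, though such sets alone cannot tell a sum from a mean or a maximum. In each library 100% of the deposited values were whole multiples of the worth of 1 read (tolerance 0.05 of a read), so read counts could be recovered from the deposited signal for edgeR. The columns of all 36 libraries matched their labels, and 2 H3K9me3 samples were not analysed here.

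Coordinates were found for 78131 of 78202 genes (99.9%). Genes in the lowest 0.1 of mean signal were left out, and log2(value + 0.1 × the table's median) was fitted with limma 3.58.1 (eBayes with trend, R 4.3.3), 1 fit per antibody table over all its groups and 1 for each scale. Fold changes are on that scale and understate changes of low genes. Tables were made with Python 3.11.15, pandas 2.3.3 and numpy 2.4.6, and figures with matplotlib 3.10.9. The 9 genes were named in full, other genes by the largest change in each list or the highest likeness, of which 1 match is not reported here. The members and lists were chosen with earlier results of these data known. Alternatives were a pseudocount of 1 × the median, no filter, a replicate block, only the groups compared, edgeR 4.0.16 on recovered reads, another scaling, and leaving out each library. On simulated data for naive QKO minus WT (70381 genes, 200 changed), limma recovered 63% of 2-fold and 14% of 1.5-fold changes, and 1.28% of its calls were false. The simulation gave all genes the same spread and no shift of the median gene. In the data limma called 53183 genes for this comparison, so the simulated rates cannot be carried over to its calls.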

Additional observations from a re-analysis of the deposited data

Results flagged for a closer look

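In 15 cases the effect of a mutation on relative LAP2B over 1 of the 9 genes differed between EpiLCs and naive mESCs by a limma interaction term (Benjamini-Hochberg adjusted over 70381 genes). For Fgf5 the effect in EpiLCs minus that in naive cells was, on the log2 scale, 0.82 for LBRKO, 0.66 for TKO and 1.36 for QKO. For Cdh2 it was 0.49 in LBRKO and 0.73 in QKO, and for Lef1 it was 0.74 in QKO. The other differences were negative. For LBRKO, TKO and QKO, Dnmt3a gave -0.70, -0.47 and -0.85, and Zic2 gave -0.90, -1.05 and -1.25. Pou3f1 gave -0.97 in LBRKO and -0.86 in QKO, and Dnmt3b gave -0.76 in LBRKO. All share the WT libraries of both stages. Over all genes, 10.2%, 5.77% and 24.8% of these differences were called higher in LBRKO, TKO and QKO, and 9.55%, 3.81% and 21.0% lower. As given above, the calls of Pou3f1, of Fgf5 and Dnmt3a in TKO, and of Zic2 in LBRKO and TKO ended when certain single libraries were left out.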

How the results depend on the processing

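On the relative scale, 45 of 66 calls over the 9 genes held under every alternative and every left-out library, and on the spike-in scale 19 of 33 did, and none changed direction. With a pseudocount of 1 × the median or with libraries divided by their mean, 5 genes were called between stages in TKO in place of 3, and with the mean 1 was called in IGG in place of 0. Same-numbered LAP2B libraries deviated together with a correlation of -0.116 to 0.177 (median -0.00535 over 84 pairs). The median was 0.00529 over 168 other pairs. No pairing by number was thus seen in relative LAP2B, which cannot show whether libraries were prepared together. For LMNB1 the medians were -0.152 over 3 same-numbered pairs and 0.0892 over 6 others. The replicate block ended 3 of 66 and 3 of 33 calls, leaving 1 in place of 2 for LMNB1 on the relative scale, and 0 in place of 1 for LMNB1 and for the LBRKO stage change on the spike-in scale. On the spike-in scale, edgeR on recovered reads also called 0 for the LBRKO stage change. When reads were multiplied by the spike-in factor, 5 in place of 1 were called in LBRKO EpiLCs, 2 in place of 4 in QKO EpiLCs and 8 in place of 5 between stages in TKO. With only the groups compared, which leaves fewer libraries for the spread, 2 in place of 4 were called in naive TKO, 1 in place of 2 between stages in WT, 2 in place of 1 in LBRKO and 2 in place of 5 in TKO. Other causes were not tested.

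Leaving out 1 library at a time on the relative scale, calls ranged from 3 to 6 between stages in TKO and in QKO, from 1 to 3 in TKO EpiLCs and for the TKO difference between stages, from 0 to 2 for LMNB1 and from 0 to 1 for IGG. On the spike-in scale they ranged from 2 to 4 in naive TKO, 1 to 2, 0 to 1 and 3 to 6 between stages in WT, LBRKO and TKO, 0 to 1 in LBRKO and in TKO EpiLCs, 2 to 5 in QKO EpiLCs, 0 to 2 for LMNB1 and 0 to 6 for IGG. Depth limits Pou3f1 and Zic2 most.

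Over all genes, dividing by the mean moved the share of calls that were higher from 44.2% to 69.6% in naive TKO, 46.6% to 63.0% in TKO EpiLCs, 50.7% to 62.2% in QKO EpiLCs, 47.0% to 75.8% and 44.0% to 54.8% between stages in WT and LBRKO, 51.7% to 30.8%, 60.3% to 15.8% and 54.2% to 44.2% for the LBRKO, TKO and QKO differences between stages, 47.2% to 73.8% for LMNB1 and 14.8% to 34.6% for IGG. Reads multiplied by the spike-in factor moved it from 61.5% to 84.0% in naive LBRKO, 61.6% to 95.9% in LBRKO EpiLCs, 1.07% to 11.6% in TKO EpiLCs and 41.5% to 52.9% between stages in LBRKO. They moved the calls over all genes from 6329 to 24170 in LBRKO EpiLCs, 6630 to 2069 in TKO EpiLCs and 39112 to 20992 in QKO EpiLCs, and between stages from 8548 to 13221 in WT, 1443 to 4267 in LBRKO and 24312 to 53279 in TKO. With only the groups compared, spike-in calls over all genes went from 6630 to 178 in TKO EpiLCs, and between stages from 8548 to 3245 in WT, 1443 to 6638 in LBRKO, 24312 to 5938 in TKO and 25005 to 40713 in QKO. With a pseudocount of 1 × the median, they went between stages from 1443 to 2594 in LBRKO and 25005 to 14295 in QKO, and relative IGG calls from 345 to 596, or to 60 with no filter. The block moved LMNB1 calls from 9447 to 5979 (relative) and 5790 to 172 (spike-in, with the higher share from 97.0% to 57.6%), and spike-in stage calls in LBRKO from 1443 to 925.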
